A study of Homo sapiens with 16 samples.

Results

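The 10 genes of cytokine receptor signalling described here were read in 16 RNA-seq libraries: the transcription factor genes STAT3, STAT5A, STAT5B and STAT6, the Janus kinase genes JAK1 and JAK2, the receptor genes IL6ST, IL6R and OSMR, and the inhibitor gene SOCS3. They were chosen by symbol from the 26485 genes of the count table, in the knowledge that STAT3, STAT5A and STAT5B had no counts in one of the lines. All 10 were found. The libraries came from PC3, a prostate cancer cell line, and HeyA8, an ovarian cancer cell line, labelled wild type in genotype. Cells were mock treated or transfected, by lipofection at a labelled 1 nM, with siNT1 (the control siRNA), siGGGGGC (an siRNA with the G-rich 6mer seed of its name) or siCAG (its sequence is not given in the sources used here), and RNA was taken at 24 and 48 h. The dose in the study's methods differs from the labelled one. The titles and count columns name the siGGGGGC libraries siMxy_3AB, and only the treatment label of each sample calls them siGGGGGC, so every value given for siGGGGGC rests on that label. With 1 library for each line, treatment and time point, the 2 replicates of a treatment differed in time (24 and 48 h). Their SD includes the time difference. As the study's methods describe it, both time points came from separate wells of the same transfection. P-values therefore measure the spread between such wells mixed with any change over time that differed between treatments. They do not measure spread between separate transfections. Each line was 1 stock of cells.

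Cytokines such as interleukin-6 bind receptors that have no kinase of their own. The receptors share the signalling chain gp130, the product of IL6ST, and carry Janus kinases on their inner side. These phosphorylate STAT proteins, which pair, enter the nucleus and switch on genes that include SOCS3 and CISH, whose products in turn dampen the receptor. STAT3 follows mostly receptors of the gp130 family, STAT5A and STAT5B follow many growth factor and cytokine receptors, and STAT6 follows interleukin-4 and interleukin-13.

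Library totals lay between 27937092 and 29971612 counts (median 28520015) in PC3 and between 29128446 and 31790209 (median 30537650) in HeyA8. Levels of different genes or of both lines are given as RPKM, counts divided by the length of the canonical transcript and by the size of the library, scaled over all 16 libraries. Responses to an siRNA are given as CPM, counts divided by the size of the library alone, scaled within a line. The siCAG libraries of HeyA8 stood apart. Over the 13872 genes tested in that line, the correlation of log2 CPM between its 24 and 48 h libraries was 0.929, against 0.976 to 0.990 in the other HeyA8 treatments. Over the 15136 genes tested in PC3 it was 0.974 to 0.990. Beyond separate effects of treatment and time, counts of a gene varied by 17.97% between PC3 libraries and by 28.2% between HeyA8 libraries. This spread includes any change over time that differed between treatments.

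The labels of the lines were read against marker genes. In PC3 the prostate secretory genes KLK2 and KLK3 were at 0 in every library, whereas TMPRSS2 had 485 to 1112 counts. TMPRSS2 was at 0 in every HeyA8 library. HeyA8 had 1838 to 6680 counts of PAX8, a marker of ovarian epithelium, and 8438 to 29072 counts of the keratin gene KRT8, but only 10 to 48 counts of EPCAM and 0 to 3 of the cadherin gene CDH1. Of the 6 ovarian markers listed, PAX8 was the most abundant in HeyA8, 3 passed 1 CPM there and 1 was at 0 in every library, and 4 passed 1 CPM in PC3. The summed list was at 77.97 to 267 CPM in HeyA8 libraries and 14.5 to 22.1 CPM in PC3 libraries. Of 6 immune markers, 1 (CD68) passed 1 CPM in either line, and the pan-leukocyte gene PTPRC had at most 12 counts. The summed immune markers were lowest in the siGGGGGC 48 h library of each line, at 14.9 CPM in PC3 and 21.8 CPM in HeyA8.

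STAT3, STAT5A and STAT5B had 0 counts in all 8 PC3 libraries. STAT3 had 2510 counts in the 24 h and 2352 in the 48 h mock library of HeyA8, and 2352 to 4410 over its 8 libraries. STAT5B had 1218 to 1794 counts there, and STAT5A 144 to 445. The HeyA8 values thus lay far from 0 in every library, whatever the treatment. Counting 3 reads over the 8 PC3 libraries together as the limit that a count of 0 allows (0.0130 CPM of 230496578 counts), the level over the 8 HeyA8 libraries was at least 7780-fold higher for STAT3, at least 3998-fold for STAT5B and at least 860-fold for STAT5A. This difference chose the 3 genes and was not tested. The member nearest to the limit among those with counts in PC3 was JAK2, with 158 to 691 counts. STAT5A and STAT5B are similar in coding sequence, so reads that match both could have affected their counts in HeyA8, which was not tested.

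The 3 genes are neighbours on chromosome 17. In hg38, STAT5B lies on the minus strand from 42199177 to 42276406, STAT5A on the plus strand from 42287547 to 42311942 and STAT3 on the minus strand from 42313325 to 42388495. They belonged to a run of 11 consecutive genes of the table, from DHX58 to PTRF (42101406 to 42423320, 321.9 kb), that all had 0 counts in every PC3 library. The run holds DHX58, KAT2A, HSPB9, RAB5C, KCNH4, HCRT, GHDC, STAT5B, STAT5A, STAT3 and PTRF, of which 8 reached 1 CPM in HeyA8. PTRF, which encodes the caveolar coat protein cavin-1, had 12084 to 33476 counts in HeyA8 libraries. RAB5C, a GTPase gene of early endosomes, had 4956 to 8400, and KAT2A, which encodes a histone acetyltransferase, 1120 to 2574. On the side of DHX58, ZNF385C had 67 counts in all PC3 libraries together and NKIRAS2 had 37.0 CPM on average. On the side of PTRF, ATP6V0A1, a subunit gene of the vacuolar proton pump, had 20 counts in all PC3 libraries and 725 to 1996 in each HeyA8 library, and NAGLU had 8.53 CPM in PC3. The plot of the genes by their order on chromosome 17 shows the gap. With genes under 1 CPM in place of 0 counts, the run reached 15 genes, from ZNF385C to MIR5010. RNA counts do not tell a gene that is missing from one that is silent.

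**Figure D1:**
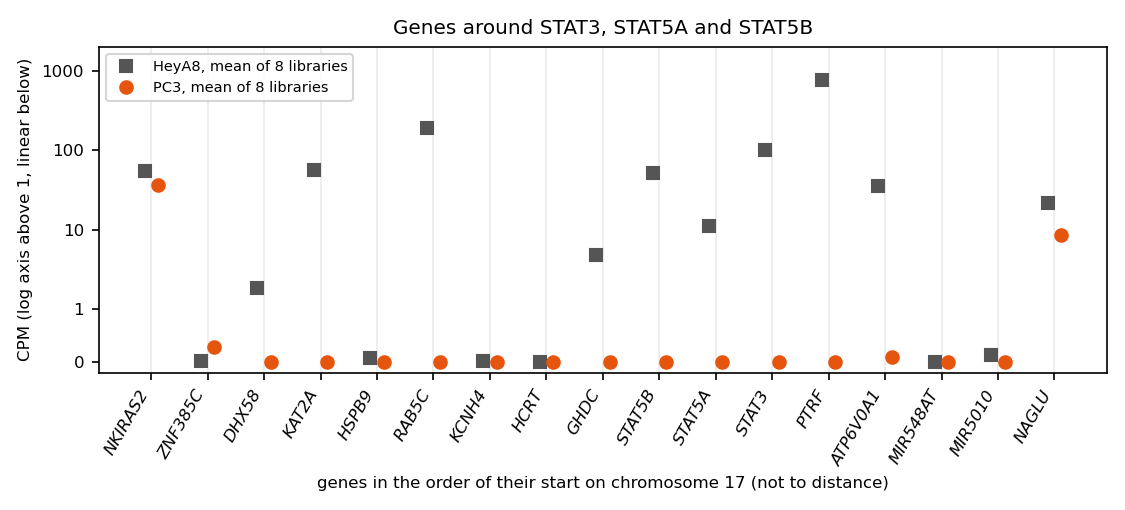
Mean CPM of consecutive genes on chromosome 17, in the order of their start, in the 8 HeyA8 libraries (squares) and the 8 PC3 libraries (circles); the axis is logarithmic above 1 CPM and linear below. From DHX58 to PTRF all PC3 circles sit at 0, while NKIRAS2 and NAGLU have counts in both lines.

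The same was looked for along the genome. Of 12077 genes with at least 1 CPM in HeyA8, 59 were at 0 in every PC3 library. Taken in order along the chromosomes, with genes under 1 CPM in HeyA8 passed over, the run of 8 around STAT3 was the longest, and the other 3 runs had 2 genes each. In the other direction 202 of 13111 genes with at least 1 CPM in PC3 were at 0 in every HeyA8 library, and runs among these were not searched. Ranked by their mean CPM in HeyA8, the genes at 0 in PC3 were led by PTRF (767 CPM), RAB5C (191 CPM), NRIP3 on chromosome 11 (112 CPM), STAT3 (101 CPM), TSPAN14 on chromosome 10 (94.8 CPM) and KAT2A (56.6 CPM). Of the first 6, 4 were thus in the run on chromosome 17.

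The seed GGGGGC pairs with the 6 bases GCCCCC of a transcript, and sites in 3′ UTRs matter most for such pairing. Among the 10 genes, the longest annotated 3′ UTR (GENCODE v44, hg38) held GCCCCC in STAT3 and STAT5B only, with 1 site each. In all, 5407 of 18029 protein-coding genes (30%) held it. Both sites lie in genes that PC3 did not express. They are shown with up to 12 bases on either side, as is the inhibitor gene CISH, which is described with the responses below and has 3 sites, each followed by an A. Other pathway genes with such sites are not shown. Capitals mark GCCCCC.
STAT3 (chr17:42313549-42313554, minus strand, 3′ UTR): ttcctgtccactGCCCCCtccccatcccca
STAT5B (chr17:42200309-42200314, minus strand, 3′ UTR): ggtcacccctcgGCCCCCtctccaaaagaa
CISH (chr3:50607530-50607535, minus strand, 3′ UTR): agctggacttggGCCCCCactgtccctcct
CISH (chr3:50607410-50607415, minus strand, 3′ UTR): ttggaggtaaatGCCCCCaggccgcatgtg
CISH (chr3:50606895-50606900, minus strand, 3′ UTR): ccactctcttctGCCCCCagccatatttgg
In coding sequence GCCCCC occurred 6 times in STAT5A, 3 times each in STAT5B, STAT6 and SOCS3, and once each in STAT3, JAK1 and IL6R, where 41.7% of all genes had at least 1. JAK2, IL6ST and OSMR had none in coding sequence or in the longest 3′ UTR, although JAK2 and OSMR held 1 each in the 5′ UTR. A match of letters is a description and not a site of action.

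The members that both lines expressed differed in level. In mock libraries JAK1, the kinase of gp130 and interferon receptors, had the highest mean of the members in both, at 27.8 and 25.4 RPKM in PC3 (24 and 48 h) and 63.1 and 65.3 RPKM in HeyA8. In HeyA8 it was followed by STAT6 (58.2 ± 3.53 RPKM, SD, n = 2), IL6ST (40.0 ± 4.48), OSMR (19.4 ± 0.241), STAT3 (17.9 ± 0.805), STAT5B (11.4 ± 1.06), SOCS3 (6.498 ± 2.63), STAT5A (3.84 ± 0.622), IL6R (3.08 ± 0.375) and JAK2 (2.49 ± 0.253). The mock values of JAK1 and STAT6 did not overlap there, nor did those of OSMR and STAT3, and STAT5A (3.399 and 4.28 RPKM) came close to IL6R (3.35 and 2.82 RPKM). In PC3 the order after JAK1 was IL6ST (23.7 ± 5.93 RPKM), SOCS3 (12.9 ± 1.69), STAT6 (11.9 ± 0.388), OSMR (10.9 ± 0.0978), IL6R (7.10 ± 0.517) and JAK2 (2.82 ± 0.286). There JAK1 overlapped IL6ST (27.9 and 19.5 RPKM), and SOCS3 overlapped STAT6, whereas OSMR, IL6R and JAK2 were apart from each other.

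**Figure D2:**
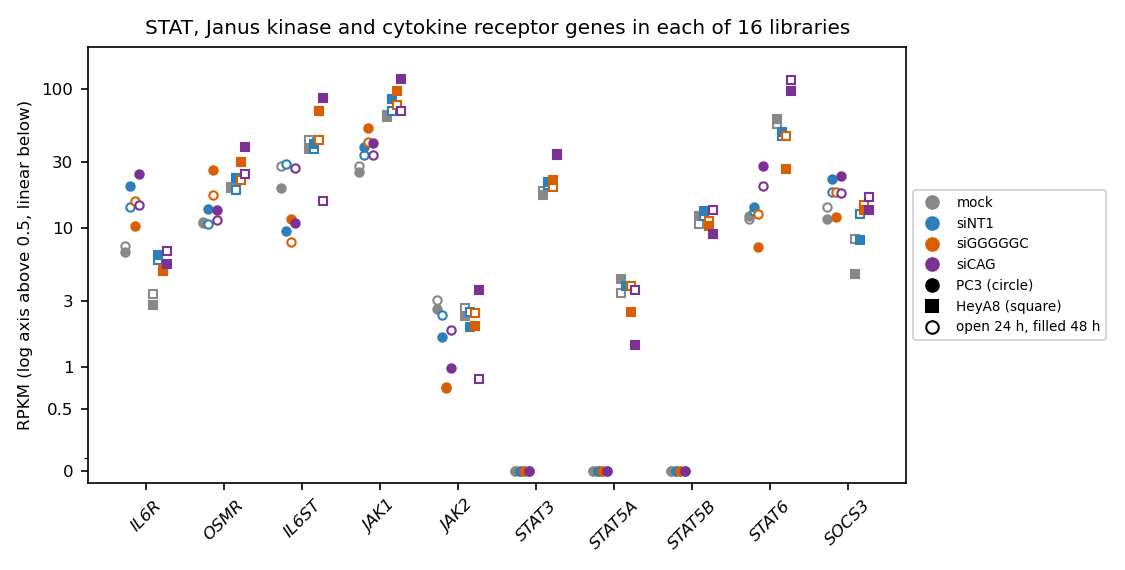
RPKM of the 10 genes in each of the 16 libraries, circles for PC3 and squares for HeyA8, open at 24 h and filled at 48 h, coloured by treatment; the axis is logarithmic above 0.5 and linear below. STAT3, STAT5A and STAT5B sit at 0 in all PC3 libraries, and IL6ST and JAK2 of HeyA8 are widest after siCAG.

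Which other genes of the pathway set the lines apart was asked of the mock libraries, in 1 edgeR fit over all 16. Of 15887 genes tested, 51% were called between the lines (Benjamini-Hochberg adjusted p under 0.05). Without the 3 genes above, 85 pathway genes were listed and 65 tested, and 23 of these were higher and 14 lower in PC3 (56.9%), where 29% of all genes were higher and 22% lower. STAT6 was 4.91-fold lower in PC3 (log2 fold change -2.29 ± 0.31, SE, adjusted p 0.000124) and JAK1 2.42-fold lower (-1.27 ± 0.21, adjusted p 0.000445). OSMR, the receptor chain for oncostatin M, was lower by 1.78-fold (-0.83 ± 0.21, adjusted p 0.00699). IL6R, the interleukin-6 binding chain, was 2.32-fold higher in PC3 (1.21 ± 0.29, adjusted p 0.00501), and SOCS3 2.05-fold higher (1.03 ± 0.27, adjusted p 0.00844). IL6ST (-0.85 ± 0.59, adjusted p 0.25) and JAK2 (0.16 ± 0.49, adjusted p 0.802) were not called, with the median of all genes at 0.097. With only the 4 mock libraries IL6ST was called as well (-0.79, adjusted p 2.31e-07), in a fit that called 11108 of 14827 genes. The p-values of that fit rest mostly on spread shared across genes. The calls of STAT6 and JAK1 held whichever mock library was left out. Those of OSMR (adjusted p up to 0.124), SOCS3 (up to 0.12) and IL6R (up to 0.0593) were each lost without 2 of the 4 mock libraries, 1 at each side.

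Other STAT and kinase genes were present in PC3. STAT2, which serves interferon receptors, was higher in PC3 than in HeyA8 (1.12 ± 0.25, adjusted p 0.00292), as was the kinase gene TYK2 (1.00 ± 0.23, adjusted p 0.00388). JAK3, a kinase best known from lymphocytes, had 160 to 439 counts in PC3 libraries and 0 to 2 in HeyA8. IL13RA2, a decoy receptor for interleukin-13, differed the other way, with 15 to 144 counts in PC3 and 1622 to 8615 in HeyA8. IFNLR1, the interferon lambda receptor gene, had 232 to 318 counts in PC3 and 0 to 5 in HeyA8, and IL22RA1, the interleukin-22 receptor gene, 35 to 83 and 0 to 9. The phosphatase gene PTPN6 had 173 to 279 counts in PC3 and 0 to 21 in HeyA8, the growth factor gene CSF2 24 to 206 and 0 to 28, the iron-binding protein gene LCN2 29 to 786 and 0 to 3, and the receptor chain gene IL2RG 5 to 17 and 0 to 1. Without the 24 h HeyA8 mock library the calls of IL22RA1, IL2RG, JAK3 and LCN2 were lost (adjusted p 1.0 each), and that of IL2RG also without the 48 h one (0.0657) or the 24 h PC3 mock library (0.0538). The most abundant ligand gene was LIF in PC3 (30.03 and 33.4 RPKM) and CLCF1 in HeyA8 (15.1 and 12.8 RPKM), both ligands of gp130 receptors. OSM, the ligand gene of OSMR, had 0 to 4 counts in PC3 libraries and 0 in HeyA8.

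Genes known as STAT3 targets were read in the same fit. Of 25 listed, 24 were tested and 11 were higher and 6 lower in PC3, beside 29% and 22% of all genes, with a median of 0.44 beside 0.097 for all genes. FOSL1 led them in both lines, at 386 and 316 RPKM in PC3 and 321 and 346 RPKM in HeyA8 mock libraries. ICAM1, an adhesion molecule gene, was higher in PC3 (3.9996 ± 0.60, adjusted p 0.000261), and S1PR1, a sphingosine phosphate receptor gene, was lower (-4.62 ± 0.54, adjusted p 3.92e-05). Of 12 STAT5 targets, 10 were tested, 7 were higher in PC3 and 0 lower, beside the same 29% and 22%. CISH, named for its induction by cytokines, had 62 to 157 counts in each PC3 library and 1 to 9 in each HeyA8 library, where STAT5A and STAT5B had counts in HeyA8 alone. SOCS3 stands on both lists. All these genes answer to other factors as well.

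The siGGGGGC response of the members was read against siNT1 in each line. In PC3, 1463 of 15136 genes (9.67%) were called, and of the 7 members tested JAK2 fell and OSMR rose, beside 6% of all genes that fell and 3.67% that rose. In HeyA8 none of the 10 members passed the test.

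JAK2, the kinase of growth hormone, erythropoietin and interferon gamma receptors, was at 24.0 and 20.8 CPM in PC3 mock libraries (24 and 48 h), at 19.3 and 13.0 CPM after siNT1 and at 5.53 and 5.68 CPM after siGGGGGC. Both siGGGGGC libraries lay below all others of the line. Against siNT1 JAK2 was 2.80-fold lower (log2 fold change -1.49 ± 0.26, SE, adjusted p 0.0218). OSMR was at 67.9 and 68.8 CPM in PC3 mock libraries, at 68.1 and 84.3 CPM after siNT1 and at 106 and 163 CPM after siGGGGGC, again with no overlap. It was 1.74-fold higher (0.80 ± 0.18, adjusted p 0.0345). JAK1 reached 236 and 303 CPM after siGGGGGC against 198 and 217 CPM after siNT1 but was not called (0.37 ± 0.16, adjusted p 0.154). Against mock in place of siNT1 it was (0.80, adjusted p 0.0165), in a fit that called 3200 genes.

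The other members of PC3 did not pass the test, and for most of them the time points differed. STAT6 was at 55.3 CPM at 24 h and 32.7 CPM at 48 h after siGGGGGC, against 60.2 and 62.5 CPM after siNT1 (-0.49 ± 0.26, adjusted p 0.238). SOCS3 was at 55.2 and 37.3 CPM against 57.0 and 68.6 CPM (-0.45 ± 0.24, adjusted p 0.239), and IL6R at 100 and 67.5 CPM against 94.4 and 130 CPM (-0.40 ± 0.29, adjusted p 0.365). In these 3 genes the 24 h values of both treatments were close and the 48 h values apart. IL6ST did the opposite. It was at 79.4 and 118 CPM after siGGGGGC against 303 and 95.6 CPM after siNT1 (-0.74 ± 0.47, adjusted p 0.304), its 48 h siNT1 library being low, as was that of siCAG (108 CPM, against 277 CPM at 24 h). Against mock in place of siNT1 the change turned upward for SOCS3 (0.21) and IL6R (0.86), with neither called. Without the 24 h siGGGGGC library STAT6 (-1.02, adjusted p 0.00951), SOCS3 (-0.82, adjusted p 0.0361) and IL6R (-0.90, adjusted p 0.0388) were called, and without the 48 h one IL6ST was (-1.76, adjusted p 0.0479). In these fits, where the single library left is assumed to vary like the other groups, 3702 of 15723 and 617 of 15454 genes were called.

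Of the 63 pathway genes tested in PC3, 4 fell and 1 rose after siGGGGGC, with a median of -0.11 beside 0.0029 for all genes. This is 7.94% of them, beside 9.67% of all genes. Besides JAK2 and OSMR, IL13RA2 fell from 5.13 and 3.46 CPM after siNT1 to 1.22 and 0.54 CPM (-2.32 ± 0.30, adjusted p 0.0121), a gene of few counts in this line. CISH went from 5.56 and 5.07 CPM to 3.23 and 2.23 CPM (-0.97 ± 0.24, adjusted p 0.0468), and IL4R, the shared receptor chain for interleukin-4 and interleukin-13, from 33.4 and 33.1 CPM to 22.8 and 12.3 CPM (-0.96 ± 0.25, adjusted p 0.0489). None of the siGGGGGC values of these genes overlapped those after siNT1. CISH is the one with GCCCCC in its 3′ UTR (the 3 sequences above), while JAK2, IL13RA2 and IL4R had none there and IL4R had 4 in coding sequence. The other tested pathway genes with GCCCCC in the longest 3′ UTR were not called, and they went both ways. Among them were SOCS7 (4 sites, 0.11, adjusted p 0.797), SOCS2 (2 sites, 0.61, adjusted p 0.2065) and CLCF1 (2 sites, -0.96, adjusted p 0.0786). Among STAT targets NNMT, an enzyme gene of nicotinamide metabolism, rose from 2.89 and 3.17 CPM to 7.16 and 11.8 CPM (1.60 ± 0.25, adjusted p 0.0176). ID1, an inhibitor of differentiation factors, rose from 207 and 58.1 CPM to 412 and 182 CPM (1.29 ± 0.23, adjusted p 0.0211), and the survival gene MCL1 from 340 and 340 CPM to 539 and 519 CPM (0.64 ± 0.14, adjusted p 0.0323). Of 23 STAT3 targets tested 3 rose (MCL1, NNMT and OSMR, which is on that list too) and 0 fell, and of 10 STAT5 targets ID1 rose and CISH fell. None of these calls, JAK2 and OSMR included, was kept when either siNT1 library was left out, where 0 genes at all were called. JAK2 then had -1.40 (adjusted p 0.124) without the 24 h and -1.58 (adjusted p 0.18) without the 48 h siNT1 library, and OSMR 0.78 (adjusted p 0.208) and 0.82 (adjusted p 0.278). Without the 48 h siGGGGGC library OSMR (0.52, adjusted p 0.0925), CISH (-0.80, adjusted p 0.106), IL4R (-0.66, adjusted p 0.0965) and ID1 (1.19, adjusted p 0.0555) were not called. Calls were also lost without the time term for OSMR (adjusted p 0.0713), CISH (0.0719), IL4R (0.0903) and ID1 (0.264), and with only the libraries compared for OSMR (0.0842), CISH (0.114), IL4R (0.101) and MCL1 (0.091). Against mock in place of siNT1 CISH (0.103), IL4R (0.0794) and MCL1 (0.0547) were not called, and without the siCAG libraries CISH (0.0643) and IL4R (0.0536) were not. In bulk libraries fewer cells that express a gene and less RNA per cell cannot be told apart. Some markers moved with these genes. Of 8 prostate markers listed, 6 were tested and 2 fell, SLC45A3 (log2 fold change -1.502, adjusted p 0.0251) and TMPRSS2 (-0.85, adjusted p 0.0433), and the summed level of the list was 37.1 and 33.4 CPM after siGGGGGC against 58.5 and 79.2 CPM after siNT1, with SLC45A3 the most abundant and KLK2 and KLK3 at 0. Of 6 ovarian markers 5 were tested and 1, PAX8, fell (-1.36, adjusted p 0.0434), and their summed level was 21.5 and 14.5 CPM after siGGGGGC against 17.8 and 18.2 CPM after siNT1, so that list did not fall as a whole. SLC45A3 and PAX8 each hold 2 GCCCCC in the longest 3′ UTR, and TMPRSS2 holds 0. SLC45A3 and PAX8 were also lower after siGGGGGC in HeyA8 but not called (-1.47 and -1.14, adjusted p 0.26 and 0.303). Whether the sites had a part was not tested. Summed fibroblast markers were at 38.0 and 29.8 CPM after siGGGGGC against 44.3 and 68.3 CPM after siNT1. Endothelial ones were at 10.5 and 7.54 CPM against 12.5 and 15.2 CPM, and immune ones at 27.1 and 14.9 CPM against 32.5 and 28.1 CPM. Epithelial ones went both ways, at 2079 and 929 CPM against 1574 and 1283 CPM. The part of all these markers in the result was not tested.

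**Figure D3:**
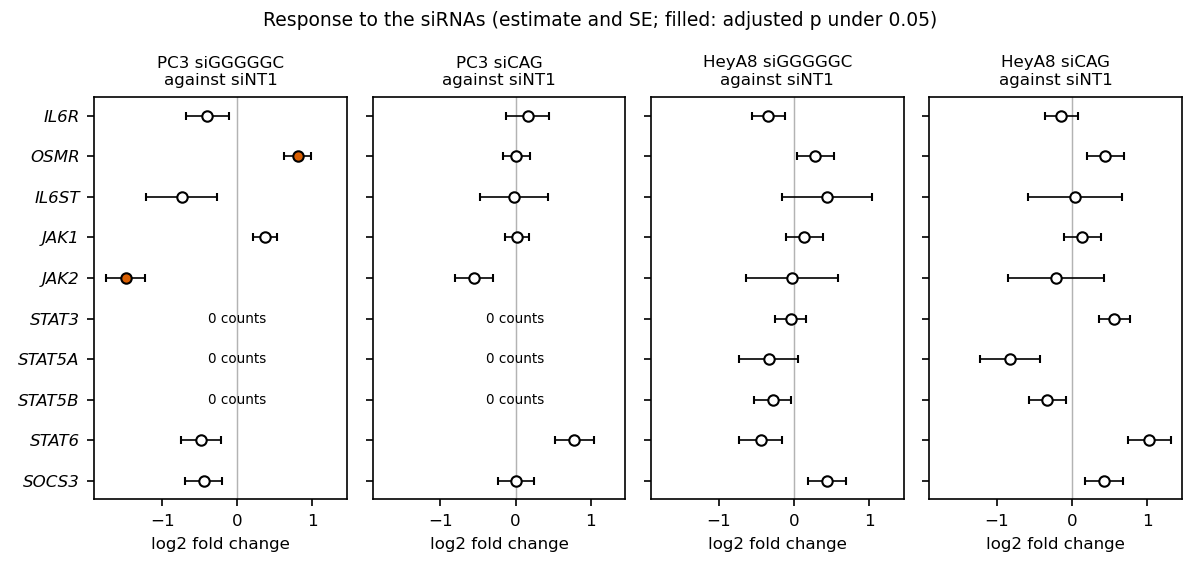
Log2 fold change of each member against siNT1 with its SE, in 4 panels by line and siRNA; filled points passed an adjusted p of 0.05. JAK2 (-1.49) and OSMR (0.80) in PC3 after siGGGGGC are the only filled points, and the SE of IL6ST and JAK2 is wide in HeyA8.

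In HeyA8 the fit over the line's 8 libraries called 0 of 13872 genes (0%) after siGGGGGC, with 1352 at an unadjusted p under 0.05, and DESeq2 called 318. STAT3 was at 86.2 and 96.9 CPM after siGGGGGC (24 and 48 h), within the range of siNT1 (91.2 and 96.9 CPM) and mock (82.2 and 78.2 CPM) (-0.04 ± 0.20, adjusted p 0.98). STAT5B was at 51.3 and 46.8 CPM against 56.6 and 62.1 CPM (-0.28 ± 0.25, adjusted p 0.774), and STAT5A at 13.0 and 8.45 CPM against 13.2 and 13.2 CPM (-0.33 ± 0.39, adjusted p 0.847). The GCCCCC sites in the 3′ UTRs of STAT3 and STAT5B thus went with changes within the SE for STAT3 and near it for STAT5B. STAT6 was at 163 CPM at 24 h and 93.7 CPM at 48 h against 165 and 178 CPM (-0.44 ± 0.28, adjusted p 0.678). Its values in PC3 had the same shape, level at 24 h and lower at 48 h. JAK2, at 15.4 and 12.5 CPM, was at the level of siNT1 (15.9 and 12.5 CPM), and OSMR was at 110 and 147 CPM against 94.5 and 116 CPM (0.29 ± 0.25, adjusted p 0.77). Without the 2 siCAG libraries of this line 477 genes were called, of which 1 was a pathway gene, and with the 4 libraries compared alone 1180, of which 4 were pathway genes; no member passed in either fit.

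An interaction term asked whether PC3 and HeyA8 responded differently. For siGGGGGC 0 of 15887 genes (0%) were called, with 1054 at an unadjusted p under 0.05, and DESeq2 called 19. The difference for JAK2 (PC3 minus HeyA8) was -1.47 ± 0.71 (adjusted p 0.78), for OSMR 0.51 ± 0.30 (adjusted p 0.825) and for SOCS3 -0.90 ± 0.38 (adjusted p 0.746). The calls of JAK2 and OSMR in PC3 were therefore not shown to be different from the values in HeyA8.

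After siCAG no member passed the test in either line. Of the pathway genes 3 ligand genes, STAT2 and the receptor gene IFNGR2 were called in HeyA8 and IFNGR2 in PC3, a share of 8.77% and 1.59% of those tested, near that of all genes. In HeyA8 1083 of 13872 genes (7.81%) were called, 4.93% lower and 2.88% higher. In PC3 182 of 15136 (1.2%) were called, 1.16% lower and 0.0396% higher.

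STAT3 in HeyA8 was at 135 and 143 CPM after siCAG against 91.2 and 96.9 CPM after siNT1. Both siCAG libraries lay above the other 6 of the line, at 1.48-fold (0.56 ± 0.21), and the adjusted p was 0.128. STAT6 was at 370 and 331 CPM against 165 and 178 CPM, also above all others, at 2.04-fold (1.03 ± 0.28, adjusted p 0.0721, and 0.0174 by DESeq2). In PC3 STAT6 was at 89.4 and 121 CPM against 60.2 and 62.5 CPM, again without overlap (0.78 ± 0.26, adjusted p 0.253). With only the libraries compared, where 2346 of 14669 genes were called in PC3, STAT6 (0.76, adjusted p 0.00115) and JAK2 (-0.57, adjusted p 0.0302) passed. STAT5A was lower at 48 h (4.67 CPM) than at 24 h (10.9 CPM), and STAT5B likewise (39.5 and 55.2 CPM), against 13.2 and 62.1 CPM in the 48 h siNT1 library (-0.83 ± 0.40 and -0.33 ± 0.25, adjusted p 0.217 and 0.406). With the 24 or the 48 h siCAG library left out, 4520 of 14332 and 4690 of 14260 genes were called. In both of these fits STAT3 (0.57 and 0.54, adjusted p 0.0288 and 0.0326) and STAT6 (1.03 and 1.01, adjusted p 0.0309 and 0.0324) were among them, and without the 24 h library STAT5A (-1.46, adjusted p 0.0191) and STAT5B (-0.63, adjusted p 0.0387) were too, the single library left being assumed to vary like the other groups.

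IL6ST and JAK2 in HeyA8 went in opposite directions at the 2 time points after siCAG. IL6ST was at 113 CPM at 24 h, the lowest value of the line, and at 676 CPM at 48 h, the highest, 5.96-fold apart. JAK2 was at 4.62 CPM at 24 h and at 21.8 CPM at 48 h, 4.72-fold apart and also the extremes of the line. In the mock and siNT1 libraries of HeyA8 the 48 h value was 0.789 to 1.10 times that at 24 h for both genes, and in the siGGGGGC libraries it was 1.64 times for IL6ST and 0.812 times for JAK2. Their pooled log2 fold changes (0.04 ± 0.63 for IL6ST, -0.22 ± 0.64 for JAK2, adjusted p 0.976 and 0.85) therefore stand for values that neither library had. With the 24 h siCAG library alone the log2 fold change was -1.39 for IL6ST and -1.76 for JAK2, and with the 48 h one 0.97 and 0.76; an arm of 1 library has no spread of its own, so these are given with no test. JAK1 (285 and 519 CPM) and the receptor gene LIFR (7.70 and 29.2 CPM) also had their lowest and highest value of the line there, and OSMR (109 and 182 CPM) its highest at 48 h.

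**Figure D4:**
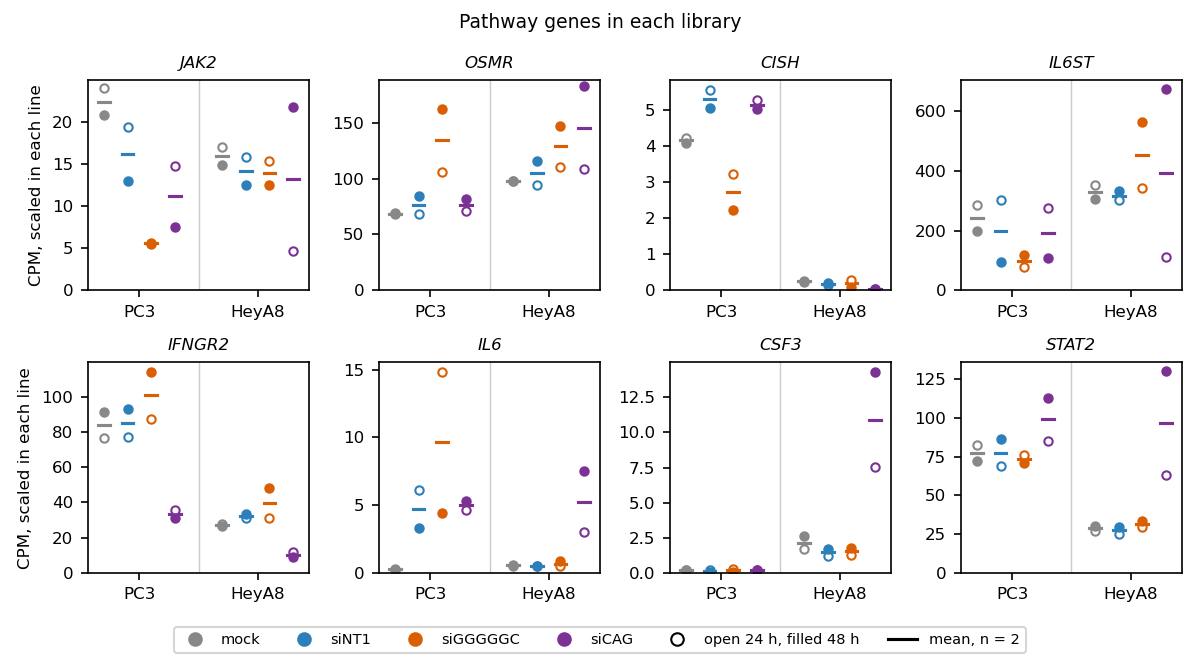
CPM, scaled within each line, of 8 pathway genes in every library, with the mean of the 2 time points as a line (open 24 h, filled 48 h). JAK2 and CISH are lowest after siGGGGGC in PC3, IFNGR2 is lowest after siCAG in both lines, and the 2 siCAG points of IL6ST and JAK2 in HeyA8 lie at opposite ends.

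Of 57 pathway genes tested in HeyA8, 4 rose and 1 fell after siCAG, with a median of 0.0027 beside -0.011 for all genes. IL6, the ligand gene of IL6R and gp130, rose from 0.50 and 0.53 CPM (16 and 15 counts) to 2.98 and 7.49 CPM (3.23 ± 0.49, adjusted p 0.0192). CSF3, the granulocyte growth factor gene, rose from 1.20 and 1.70 CPM to 7.504 and 14.3 CPM (2.86 ± 0.31, adjusted p 0.00706), and CTF1, which encodes the gp130 ligand cardiotrophin-1, from 0.44 and 0.60 CPM to 2.95 and 4.12 CPM (2.75 ± 0.41, adjusted p 0.0188). STAT2 rose from 25.2 and 29.7 CPM to 63.2 and 130 CPM (1.76 ± 0.29, adjusted p 0.0221). The ligand genes stayed low in level, and the siCAG values of all 4 genes lay above the other 6 libraries. In PC3 IL6, CTF1 and STAT2 were not called after siCAG, and CSF3, with few counts, was not tested. IL6 was at 4.64 and 5.33 CPM there against 6.13 and 3.32 CPM after siNT1, and STAT2 at 85.2 and 113 CPM against 69.1 and 86.1 CPM.

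IFNGR2, the second chain of the interferon gamma receptor, fell in both lines. It was at 35.5 and 31.2 CPM after siCAG against 77.2 and 93.0 CPM after siNT1 and 76.2 and 91.2 CPM in mock libraries in PC3 (2.53-fold lower, -1.34 ± 0.18, adjusted p 0.0146), and at 11.96 and 8.82 CPM against 31.2 and 33.5 CPM after siNT1 and 27.5 and 26.7 CPM in mock libraries in HeyA8 (3.10-fold lower, -1.63 ± 0.30, adjusted p 0.0311). It was the 1 pathway gene of 63 called in PC3. Its coding sequence holds 4 CTG in a row, the complement of CAG, and 3.16% of 18029 protein-coding genes had so many in their canonical transcript. The epithelial cadherin gene CDH1, which holds 5, fell in PC3 as well, from 27.997 and 21.8 CPM after siNT1 to 8.40 and 7.98 CPM (-1.60 ± 0.18, adjusted p 0.00656), with 0 to 3 counts in HeyA8. Its mock libraries were at 9.9999 and 9.58 CPM, near those of siCAG, and siNT1 was above mock (1.34 ± 0.18, adjusted p 0.0417), so unlike IFNGR2 it was low only against siNT1. Both runs are shown, with CTG in capitals.
IFNGR2 (chr21:33403568-33403579, plus strand, coding): ctgtggtcgCTGCTGCTGCTGctcggagtc
CDH1 (chr16:68737446-68737460, plus strand, coding): ctcggcgCTGCTGCTGCTGCTGcaggtct
The pathway genes IL15RA and IL11 also have such a run. IL15RA was at 3.59 and 3.03 CPM against 6.55 and 6.38 CPM after siNT1 and 4.97 and 3.33 CPM in mock libraries in PC3 (-0.98 ± 0.24, adjusted p 0.137) and at 9.81 and 6.36 CPM against 19.5 and 18.2 CPM after siNT1 and 12.97 and 14.3 CPM in mock libraries in HeyA8 (-1.26 ± 0.34, adjusted p 0.0704). IL11 was at 1.65 and 2.097 CPM against 4.67 and 4.85 CPM after siNT1 in PC3, with mock at 1.67 and 0.86 CPM, near siCAG (-1.34 ± 0.40, adjusted p 0.2) and at 3.75 and 4.64 CPM against 4.76 and 17.9 CPM after siNT1 and 4.36 and 8.44 CPM in mock libraries in HeyA8 (-1.13 ± 0.43, adjusted p 0.141). The values were below siNT1 at both time points, but neither gene was called. None of the 10 members had more than 3 in a row.

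Some STAT targets rose in HeyA8 after siCAG. Of 23 STAT3 targets tested 7 rose and 0 fell, with a median of 0.63 beside -0.011 for all genes, where 2.88% of all genes were called higher. Of 9 STAT5 targets 2 rose, BCL2L1 and BCL6, which are on both lists, with a median of -0.19. The other targets did not pass the test. NNMT went from 30.4 and 26.3 CPM to 121 and 189 CPM (2.43 ± 0.28, adjusted p 0.00872), and the survival gene BCL2L1 from 144 and 133 CPM to 386 and 404 CPM (1.51 ± 0.20, adjusted p 0.0137). BCL6, which encodes a transcriptional repressor, went from 12.8 and 13.2 CPM to 37.9 and 93.9 CPM (2.27 ± 0.39, adjusted p 0.0251), and ICAM1 from 1.99 and 2.16 CPM to 17.1 and 87.0 CPM (4.19 ± 0.79, adjusted p 0.0317). TIMP1, CEBPB and BCL3 rose by 1.13, 1.20 and 2.38 on the log2 scale (adjusted p 0.0324, 0.0449 and 0.0476). SOCS3 was not among them, with 36.4 and 31.8 CPM against 31.4 and 20.5 CPM (0.42 ± 0.26, adjusted p 0.314), although it passed against mock (1.12, adjusted p 0.0468). In PC3 0 of 23 STAT3 targets were called after siCAG by edgeR, where 1.2% of all genes were. The difference between the lines was called for BCL6 alone of the pathway and target genes (interaction -2.43 ± 0.41, adjusted p 0.0301, where 0.636% of 15887 genes were called), so the other targets are not shown to respond differently. Markers of other cell types moved with these genes in HeyA8. Summed immune markers, with CD68 the most abundant, were at 96.3 and 48.2 CPM after siCAG against 55.8 and 35.2 CPM after siNT1. Mock libraries were at 58.0 and 48.1 CPM. CD68 was not called by edgeR (0.63, adjusted p 0.204), and its part in the result was not tested. Summed fibroblast markers were at 18.3 and 41.1 CPM after siCAG against 9.78 and 6.10 CPM after siNT1, with COL1A1 the most abundant, and endothelial ones at 8.02 and 11.8 CPM against 4.32 and 5.46 CPM, with CDH5 the most abundant; 2 of 6 and 4 of 5 of these markers were tested and 0 called, and their part in the result was not tested.

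**Figure D5:**
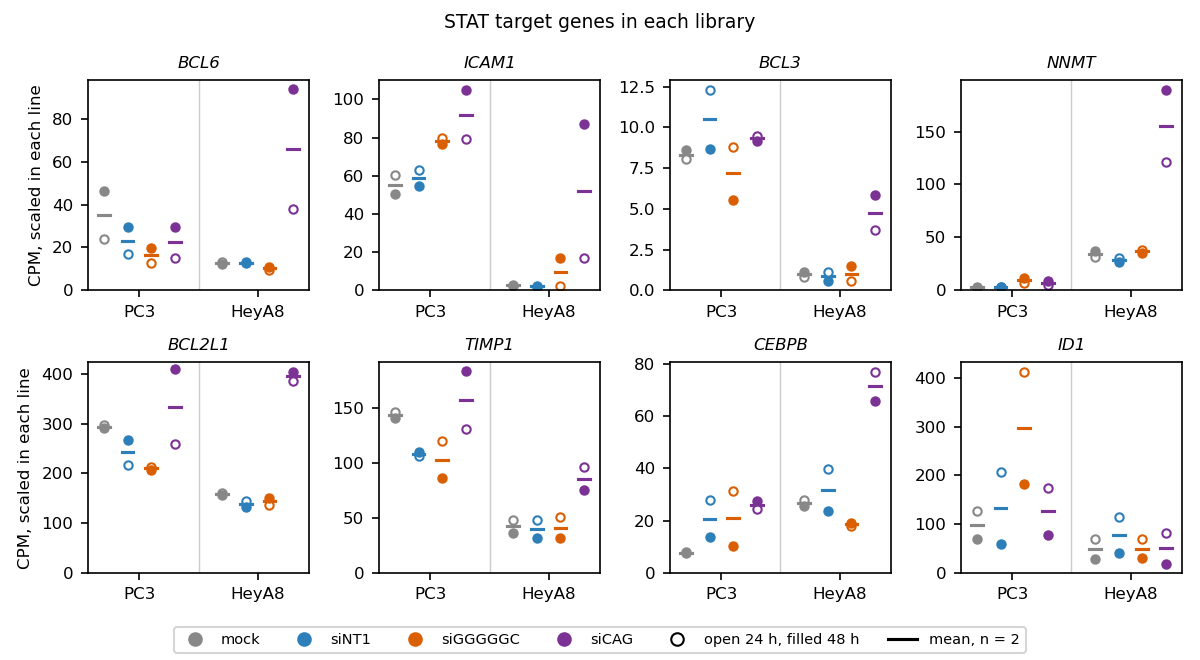
CPM, scaled within each line, of 8 STAT target genes in every library, with the mean of the 2 time points as a line (open 24 h, filled 48 h). In HeyA8 the siCAG points of BCL6, NNMT, BCL2L1, TIMP1, CEBPB, BCL3 and ICAM1 lie above the siNT1 points. ID1 in PC3 is highest after siGGGGGC at each time point, although its 48 h point lies below the 24 h siNT1 point.

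The calls after siCAG in HeyA8 rested on both siNT1 libraries. Without the 24 h one 54 genes were called and without the 48 h one 42, with 0 pathway genes each, and the adjusted p of IL6 was 0.126 and 0.24, of IFNGR2 0.198 and 0.256 and of BCL6 0.15 and 0.275. In PC3 the call of IFNGR2 was lost without either siNT1 library (adjusted p 0.104 and 0.289) or without the 48 h siCAG library (-1.11, adjusted p 0.162). With only the libraries compared STAT2 (adjusted p 0.0514) and BCL2L1 (0.0536) were not called in HeyA8. Directions stayed as given in each of these fits.

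The control transfection itself was read against mock. In PC3 35 genes (0.231%) were called after siNT1, 0.205% higher and 0.0264% lower, among them IL6 of the pathway, LCN2 of the STAT3 targets and the marker CDH1. IL6 was at 0.31 and 0.20 CPM (9 and 6 counts) in mock libraries and at 6.13 and 3.32 CPM after siNT1 (4.17 ± 0.56, adjusted p 0.0417), and it stayed at 4.45 to 14.8 CPM after siGGGGGC and siCAG. LCN2 was at 1.25 and 0.96 CPM in mock and at 14.7 and 11.6 CPM after siNT1 (3.56 ± 0.36, adjusted p 0.0247). Both calls were lost when any 1 of the 4 libraries compared was left out, with adjusted p of up to 0.515 for IL6 and up to 0.363 for LCN2, and that of IL6 also without the time term (0.105). In HeyA8 0 of 13872 genes (0%) were called, 177 had an unadjusted p under 0.05, and DESeq2 called 1. IL6 was at 0.50 to 0.59 CPM in its mock and siNT1 libraries alike. IL6R stood above mock in all transfected libraries of both lines, with 48.7 and 43.9 CPM in mock and 94.4 and 130 CPM after siNT1 in PC3 (1.26 ± 0.29, adjusted p 0.203), and 17.5 and 14.9 CPM and 31.0 and 33.8 CPM in HeyA8 (1.01 ± 0.22, adjusted p 1). It did not pass over all genes in either line, while DESeq2 called it in PC3 (adjusted p 0.00608), as did the fit of only the libraries compared in PC3 (0.0184) and in HeyA8 (9.67e-15), where that fit called 1574 of 13298 genes. With 4 libraries for treatment and time, the p-values of that fit rest mostly on spread shared across genes. Their small size is therefore not a measure of replication. SOCS3 was at 43.5 and 36.1 CPM in mock and 57.0 and 68.6 CPM after siNT1 in PC3 (0.66 ± 0.24, adjusted p 0.465). In HeyA8 it was at 20.7 and 11.6 CPM in mock and 31.4 and 20.5 CPM after siNT1 (0.70 ± 0.26, adjusted p 1.0, and 9.28e-07 with only the libraries compared).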

How the data were processed

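Total RNA was sequenced from PC3 and HeyA8 cells (16 libraries, 8 groups of 2). The authors trimmed the reads, aligned them (the labels name STAR; the study's methods name this or another aligner) to hg38 and counted reads per gene with HTSeq; the deposited values are raw counts, and whether strand was used is not given in the sources used here, so reads of STAT6 and JAK1 cannot be told from those of NAB2 and RAVER2 on the other strand. The table had 0 columns without a sample. Its start and end columns gave positions; its length column was not used.

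Genes were filtered (filterByExpr) and scaled (TMM) and tested with edgeR 4.0.16 (quasi-likelihood; R 4.3.3) on siRNA and time within a line, or on 8 groups and time within line over 16 libraries, with Benjamini-Hochberg adjustment over all genes tested. With 2 libraries per group, the error rests on the spread shared across genes and groups. In fits of the compared libraries alone, little spread of a gene's own is left beside treatment and time. RPKM used GENCODE v44 canonical lengths. Alternatives were RLE factors, DESeq2 1.42.0, no filter, no time term, the compared libraries alone, mock as control, each library left out and, added after seeing the data, no siCAG libraries.

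The members and the lists (88 pathway genes in 7 lists, 25 STAT3 and 12 STAT5 targets, markers) were chosen with earlier results of these data known. Named were the members, listed genes that passed (at most 8 per comparison by smallest p, or by largest change between lines), the 3 most abundant of a list, the 5 other genes most like STAT3, its neighbours and genes with the sites; others were chosen after their values were seen. Some listed genes are not reported here.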

Additional observations from a re-analysis of the deposited data

Results flagged for a closer look

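The response to siCAG differed between the lines for BCL6, a repressor gene on both target lists (interaction, PC3 minus HeyA8, -2.43 on the log2 scale, adjusted p 0.0301 by edgeR's quasi-likelihood test). BCL6 was at 16.9 and 29.5 CPM after siNT1 and 15.3 and 29.5 CPM after siCAG in PC3, and at 12.8 and 13.2 CPM and 37.9 and 93.9 CPM in HeyA8. The difference kept its direction in all 13 alternatives and was called in 5 of them; leaving out any siNT1 library or either PC3 siCAG library ended the call, with adjusted p of 0.0958 to 0.255, as did the fit with no time term (0.133) and that with only the libraries compared (0.335).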

How the results depend on the processing

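Counts of called genes depended on how the spread was estimated. DESeq2 called 2859 genes after siGGGGGC and 572 after siCAG in PC3, 266 for siNT1 against mock there, 318, 2665 and 1 in the same comparisons of HeyA8, and 19 and 671 for the siGGGGGC and siCAG interactions; pathway genes called were 9, 4 and 5 in PC3, 13 after siCAG in HeyA8 and 6 in the siCAG interaction. Without a filter 82 genes and 2 pathway genes were called for siNT1 against mock in PC3, 2 pathway genes after siCAG there, 18 genes after siGGGGGC in HeyA8 and 1 pathway gene in the siCAG interaction. Without a time term (no replicate block) 625 genes and 2 pathway genes were called after siGGGGGC and 6 and 0 for siNT1 against mock in PC3, 3 after siGGGGGC in HeyA8 and 51 in the siCAG interaction. With only the libraries compared the counts were 438 and 2 after siGGGGGC, 2346 and 16 after siCAG and 253 and 5 for siNT1 in PC3, 1180 and 4, 580 genes, and 1574 and 13 in HeyA8, and 0 in the siCAG interaction. Against mock in place of siNT1, 3200 and 11 were called after siGGGGGC and 391 and 3 after siCAG in PC3. Without the siCAG libraries 11 genes were called for siNT1 against mock in PC3, and 477 genes and 1 pathway gene after siGGGGGC in HeyA8. Leaving out 1 library gave 0 to 3702 genes and 0 to 19 pathway genes after siGGGGGC, 30 to 125 and 0 to 2 after siCAG and 0 to 0 of both for siNT1 in PC3, 42 to 4690 and 0 to 27 after siCAG in HeyA8, 5118 to 5676 genes between the mock lines, and 1 to 1520 and 0 to 8 in the siCAG interaction. RLE factors moved no count by over 1.5 times. The cause of these shifts was not tested. Of the values of single genes under the alternatives, 882 kept direction and call, 53 changed direction with no call on either side, 83 lost the call, 26 gained one, and 2 changed direction with a call, both after siCAG in HeyA8: IL6ST to -1.39 without its 48 h library (0.97 without its 24 h one) and JAK2 to 0.76 without its 24 h library (-1.76 without its 48 h one). Members that gained a call and are not named with it above are OSMR after siCAG in HeyA8 without the 24 h siCAG library (0.68), JAK1 (0.26) and STAT6 (-0.29) for siNT1 against mock there with only the libraries compared, and JAK2 in the siCAG interaction without the 24 h HeyA8 siCAG library (-1.40). The run around STAT3 was 11 genes at 0 or at most 3 counts and 15 at under 1 CPM. The labels give no replicate numbers, but the main fits paired treatments by time point, the replicate block; apart from the counts given above without it, that block moved no count by over 1.5 times. With 1 library per line, treatment and time, values at a single time have no error.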

Other observations

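BIRC5, the survivin gene on the STAT3 target list, was chosen after its values were seen. In HeyA8 it had 4870 to 6885 counts in the mock, siNT1 and siGGGGGC libraries, 2778 counts at 24 h after siCAG and 26 counts at 48 h after siCAG. In PC3 it had 6693 and 4465 counts after siCAG, the 2 lowest of that line, and 13164 and 17882 after siGGGGGC, the 2 highest. It was not called by edgeR after siCAG in HeyA8 (-2.48, adjusted p 0.319) or PC3 (-0.75, adjusted p 0.215), or after siGGGGGC in PC3 (0.78, adjusted p 0.0688). HIF1A, a gene of the hypoxia response, was at 246 and 241 CPM after siGGGGGC in PC3 against 658 and 379 CPM after siNT1 and 680 and 737 CPM in mock libraries. SOCS4, a suppressor gene of the same family as SOCS3, was at 40.5 and 50.3 CPM after siGGGGGC against 149 and 81.8 CPM after siNT1 and 155 and 155 CPM in mock libraries of PC3. Neither was called (adjusted p 0.0505 and 0.0831 by edgeR). LEPR, the leptin receptor gene, was at 23.8 CPM in the 48 h siGGGGGC library of HeyA8, against 2.73 to 11.3 CPM in the other 7.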
